A study of Mus musculus with 12 samples.

Results

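The Ifitm genes encode small interferon-induced transmembrane proteins, and 7 of them were measured in mouse hematopoietic stem cells, which renew themselves and give rise to the blood lineages. The members were taken by symbol, as the rows of the deposited expression table whose Ensembl identifiers map to Ifitm1, Ifitm2, Ifitm3, Ifitm5, Ifitm6, Ifitm7 and Ifitm10, and they make up 7 of the 35275 genes in that table. The family as a whole was chosen by the measured change of Ifitm1 in these libraries, and its members by name. RNA was sequenced from 12 libraries in 4 groups of 3. The groups were Thpo-/- knockout cells from mice given Romiplostim (treated knockout), Thpo-/- cells from untreated mice (untreated knockout), Thpo+/+ cells from mice given Romiplostim (treated wild type) and Thpo+/+ cells from untreated mice (untreated wild type). All mice were C57BL/6, and their ages are not given in the labels. Thpo encodes thrombopoietin, a cytokine that maintains stem cells and drives platelet production. Romiplostim, a drug that mimics its action (an agonist), was given into a vein at 100 µg/kg per day for 10 days. The protocol names PBS for the controls, whereas the treatment label of those mice reads untreated.

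Ifitm proteins sit in the membranes of the cell surface and of endosomes and lysosomes, where they hinder the fusion of enveloped viruses with the cell. Several of the genes are induced by type I and type II interferon through response elements near their start sites, and in stem cells some are also transcribed without any added interferon. Ifitm3 acts mainly in late endosomes and Ifitm1 more at the cell surface in human cells, and Ifitm2 is a close relative of Ifitm3 in sequence and location. Ifitm5 is known from bone-forming cells.

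Of the 7 members, 5 lie within 69.0 kb of chromosome 7 (mm10, GENCODE M21). They are Ifitm5 (140948958 to 140950291, minus strand), Ifitm2 (140954837 to 140955987, minus), Ifitm1 (140967221 to 140969825, plus), Ifitm3 (141009586 to 141010770, minus) and Ifitm6 (141015699 to 141017924, minus). Ifitm10 lies 1.31 Mb further along the same chromosome (142325837 to 142373753, minus). Ifitm7 lies on chromosome 16 (13981699 to 13986888, minus).

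The promoter windows of the 4 genes at the centre of the results, and of Ifitm6, are shown because the windows differ in the motifs marked below and the members in their expression. Each window holds 300 bases from 250 before to 50 after the start of transcription in RefSeq (GRCm38.p6), so that the start is base 251. Capitals mark 2 interferon-related motifs searched on both strands, the core of the interferon-stimulated response element (GAAA, any 2 bases, GAAA) and the gamma-activated site (TTC, any 3 bases, GAA), which STAT factors bind.
Ifitm1, chr7:140967826-140968125, plus strand: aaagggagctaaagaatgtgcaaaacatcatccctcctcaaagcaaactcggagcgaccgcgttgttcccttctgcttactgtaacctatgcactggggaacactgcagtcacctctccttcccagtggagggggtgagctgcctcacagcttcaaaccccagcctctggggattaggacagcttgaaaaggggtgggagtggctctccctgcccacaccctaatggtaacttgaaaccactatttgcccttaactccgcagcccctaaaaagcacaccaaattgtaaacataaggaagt
Ifitm2, chr7:140955912-140956211, minus strand: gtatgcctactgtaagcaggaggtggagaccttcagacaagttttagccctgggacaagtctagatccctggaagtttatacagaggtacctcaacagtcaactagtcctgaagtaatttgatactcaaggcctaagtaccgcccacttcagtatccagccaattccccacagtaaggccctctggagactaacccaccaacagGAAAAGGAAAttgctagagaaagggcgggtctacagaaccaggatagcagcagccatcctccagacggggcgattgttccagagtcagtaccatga
Ifitm3, chr7:141010695-141010994, minus strand: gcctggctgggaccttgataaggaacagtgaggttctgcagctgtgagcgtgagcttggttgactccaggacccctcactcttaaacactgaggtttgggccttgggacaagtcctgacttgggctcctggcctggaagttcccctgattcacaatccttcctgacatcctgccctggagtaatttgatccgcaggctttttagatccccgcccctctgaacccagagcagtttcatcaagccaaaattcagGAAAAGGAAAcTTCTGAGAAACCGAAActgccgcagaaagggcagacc
Ifitm6, chr7:141016843-141017142, minus strand: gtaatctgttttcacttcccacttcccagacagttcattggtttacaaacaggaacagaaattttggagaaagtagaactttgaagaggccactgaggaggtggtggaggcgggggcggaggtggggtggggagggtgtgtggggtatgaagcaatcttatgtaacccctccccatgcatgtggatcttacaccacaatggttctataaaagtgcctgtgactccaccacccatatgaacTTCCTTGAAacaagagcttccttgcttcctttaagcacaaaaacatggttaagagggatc
Ifitm7, chr16:13986818-13987117, minus strand: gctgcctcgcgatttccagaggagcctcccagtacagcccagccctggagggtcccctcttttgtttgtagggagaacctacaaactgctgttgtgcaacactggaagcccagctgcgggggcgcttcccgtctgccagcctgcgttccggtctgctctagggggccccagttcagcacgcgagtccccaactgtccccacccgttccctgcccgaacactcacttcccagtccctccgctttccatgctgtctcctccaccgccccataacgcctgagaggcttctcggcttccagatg

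The Ifitm2 window held 1 core of the response element, GAAAAGGAAA, from base 205. The Ifitm3 window held 2, GAAAAGGAAA from base 253 and GAAACCGAAA from base 270, both just after the start. It also held the gamma-activated site TTCTGAGAA from base 264, which overlaps the second of these cores. The Ifitm6 window held 1 gamma-activated site, TTCCTTGAA, from base 241. Neither motif was found in these windows of Ifitm1, Ifitm5, Ifitm7 or Ifitm10. The Ifitm1 and Ifitm6 windows lie inside the GENCODE spans given above, past the start of each gene there. Bases before those GENCODE starts were not searched, so the absence of a motif holds for these windows alone. Of 32851 RefSeq windows of the same length, 3.44% held the core of the response element and 8.3% held the gamma-activated site. These are matches of letters and say nothing of binding.

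Values are FPKM, fragments scaled to gene length and sequencing depth, which allows levels to be compared between genes. Estimated depth was 27.7 to 35.6 M fragments per library, with 11262 to 12374 genes at 1 FPKM or more. Thpo was listed at 0 in 10 of the 12 libraries, in wild-type and knockout libraries alike, so it could not check the genotype. Per the design text each group was sequenced on a run of its own, and the effects of run and group cannot be told apart. Whether replicates came from separate animals is not said in the labels, and p-values measure only the spread between these samples. Stem cell markers were present in every group, but 10 of 12 were lower in untreated knockout than in untreated wild-type libraries, while all 10 B lineage, 11 of 12 monocyte and neutrophil and all 8 macrophage markers were higher. Of the other lists, 6 of 8 erythroid, 5 of 6 T and NK and all 5 tested stromal and endothelial markers were higher. These counts are at an adjusted p under 0.05 in limma, where 22.1% of all 12823 tested genes were higher and 23.0% lower. The summed FPKM of the B lineage markers was 1802 to 4323 in untreated knockout and 87.9 to 98.6 in untreated wild-type libraries, and its defining factor Pax5 was at 0 in all treated wild-type libraries, untreated wild-type replicate 1 and treated knockout replicate 1. For the monocyte and neutrophil list the sums were 6914 to 32190 and 1258 to 3431, and for the macrophage list 766 to 2300 and 35.4 to 54.2. In treated knockout libraries the 3 sums were 98.5 to 669, 2872 to 4168 and 46.0 to 92.7. In bulk RNA, fewer cells of a type and less RNA per cell cannot be told apart, and the part of these markers in the Ifitm differences was not tested. All 3 treated knockout libraries had almost no Y-linked RNA (mean of 4 genes at most 0.0389 FPKM), whereas the untreated knockout libraries had 11.3 to 24.9 FPKM, so that treatment and sex of the mice cannot be told apart within the knockout. Among wild-type libraries, treated replicate 1 and untreated replicate 2 were low in Y-linked RNA.

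The family was dominated by 3 of its members. In treated knockout stem cells Ifitm1, Ifitm3 and Ifitm2 ranked 20, 18 and 64 by mean FPKM among all genes of the table. In untreated knockout cells the same genes ranked 765, 132 and 117. They ranked 3, 10 and 37 in treated wild-type cells and 6, 10 and 31 in untreated wild-type cells. The other 4 members were far lower in untreated wild-type cells, with means between 0.0614 FPKM (Ifitm10) and 9.31 FPKM (Ifitm6). In untreated knockout replicate 3, however, Ifitm6 (323 FPKM) stood above Ifitm1 (194 FPKM).

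Ifitm1 (ENSMUSG00000025491) had 2139, 3054 and 3954 FPKM in the treated knockout libraries and 191, 210 and 194 FPKM in the untreated knockout libraries. It had 4174, 6133 and 6438 FPKM in the treated wild-type libraries and 4964, 3797 and 4651 FPKM in the untreated wild-type libraries. The untreated knockout stood alone, with its highest library far below the lowest of any other group. From low to high, the means were 198 ± 10.3 FPKM in untreated knockout, 3049 ± 908 in treated knockout, 4471 ± 604 in untreated wild type and 5582 ± 1228 in treated wild type (SD, n = 3 each). Treated and untreated wild type overlapped in this order, as did treated knockout and untreated wild type.

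Ifitm3 (ENSMUSG00000025492) had 2701, 3037 and 3708 FPKM in treated knockout libraries and 612, 589 and 983 FPKM in untreated knockout libraries. Its values were 3383, 3984 and 3931 FPKM in treated wild-type libraries and 3505, 3653 and 4104 FPKM in untreated wild-type libraries. Again only the untreated knockout libraries lay apart, and the other 3 groups overlapped one another.

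Ifitm2 (ENSMUSG00000060591) had 1506, 1475 and 1879 FPKM in treated knockout libraries and 803, 727 and 803 FPKM in untreated knockout libraries. It had 2012, 2492 and 2318 FPKM in treated wild-type libraries and 2140, 2146 and 2394 FPKM in untreated wild-type libraries. The untreated knockout libraries were the lowest, the treated knockout libraries were intermediate and did not reach either wild-type group, and the wild-type groups overlapped.

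**Figure D1:**
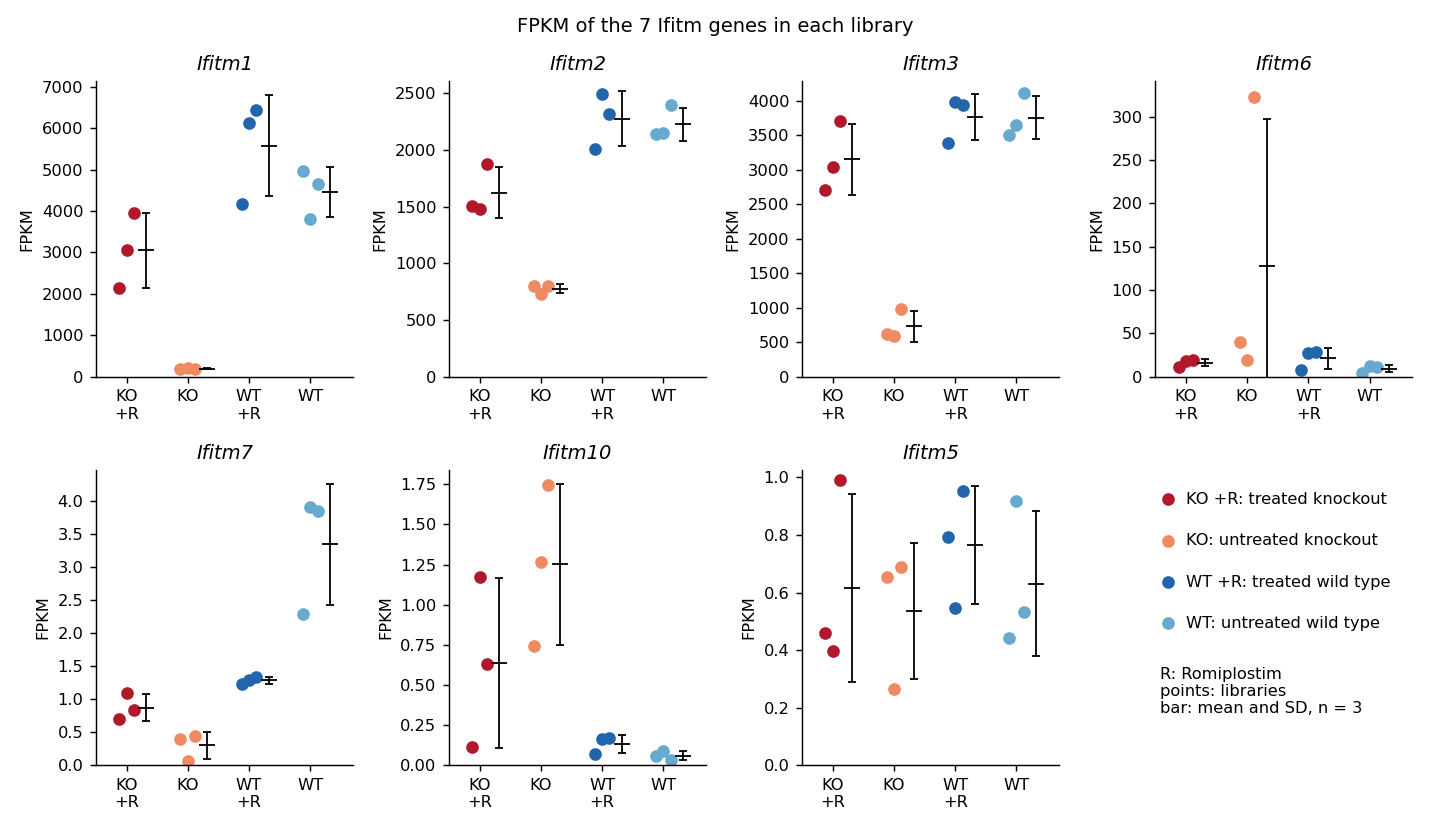
FPKM of each Ifitm gene (vertical axis, linear, own scale per gene) in the 3 libraries of each group, with the mean and SD beside them; the lower bar of Ifitm6 in untreated knockout runs below 0 and is cut there. Ifitm1, Ifitm2 and Ifitm3 are lowest in untreated knockout, Ifitm7 is highest in untreated wild type, and 1 untreated knockout library holds 323 FPKM of Ifitm6.

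The first comparison set untreated knockout against untreated wild-type libraries. Ifitm1 stood furthest apart, at 4.43% of its untreated wild-type mean, a ratio of means of 22.6 in favour of wild type. Its log2 difference of -4.48 ± 0.23 (SE) was the lowest of the 12823 genes that passed a filter of at least 1 FPKM in at least 3 libraries. Since this change chose the family, it is given without a test. Ifitm2 and Ifitm3 entered by name, but their levels ran with those of Ifitm1 over the 12 libraries (r = 0.98 each). Their p-values, here and below, are therefore not independent of that choice. Ifitm3, which restricts viruses in late endosomes, fell to 19.4% of its wild-type mean (log2 difference -2.40 ± 0.21, limma adjusted p = 1.09e-05). Ifitm2 fell to 34.9% (log2 difference -1.52 ± 0.14, adjusted p = 2e-05). The 3 neighbours on chromosome 7 were thus all lower in untreated knockout, and the differences were larger the higher the gene stood in wild type. Both Ifitm2 and Ifitm3 kept their direction and adjusted p under 0.05 in each of 24 alternative fits, including the one with Y-linked level as a covariate.

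The remaining members did not follow the same direction. Ifitm7 was also lower, whereas Ifitm6 and Ifitm10 were higher in untreated knockout, and Ifitm5 was too low to be tested. All 5 tested members besides Ifitm1 were called, 3 lower and 2 higher, but 45.1% of all 12823 genes were called in this comparison (22.1% higher and 23.0% lower). Nothing is read from the count of members, because Ifitm10 passed the filter only through knockout libraries and Ifitm7 mostly through wild-type libraries.

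The second comparison set treated against untreated knockout libraries. Ifitm1 averaged 15.4 times its level in untreated knockout cells and came to 68.2% of the untreated wild-type mean. Its log2 difference of 3.89 ± 0.23 was the second highest of all tested genes and is given without a test. Ifitm3 rose by 2.14 ± 0.21 on the log2 scale (adjusted p = 5.21e-05), reaching 83.9% of the untreated wild-type mean. Ifitm2 rose by 1.05 ± 0.14 (adjusted p = 0.00043), reaching 72.7%. Among these genes the differences were larger the further the untreated knockout had been below wild type. Both comparisons use the same untreated knockout libraries with opposite sign, so this order is partly built in and nothing is read from it. In this comparison 29.6% of tested genes were called, 10.7% higher and 18.9% lower. Of the called genes 36.3% were higher, a share that became 47.9% after median-of-ratios rescaling and 58.2% after quantile normalization. Ifitm2 and Ifitm3 were called under each of these scalings and in each of the 24 alternatives, with log2 differences of 0.58 (quantile normalization) to 1.22 for Ifitm2 and 1.83 to 2.42 for Ifitm3. With Y-linked level as a covariate, which rests on the wild-type libraries, the adjusted p was 0.0122 for Ifitm2 and 0.00385 for Ifitm3, and the log2 difference of Ifitm1 was 4.36.

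The third comparison set treated against untreated wild-type stem cells. Here the 3 abundant members differed little, with log2 differences of 0.30 ± 0.23 for Ifitm1, 0.03 ± 0.14 for Ifitm2 (adjusted p = 0.977) and 0.00 ± 0.21 for Ifitm3 (adjusted p = 1). The single member called was Ifitm7, which fell, beside 1.84% of all tested genes (0.866% higher and 0.975% lower). Same-numbered treated and untreated wild-type libraries deviated together, with correlations of 0.40, 0.12 and 0.38. Replicates 1 and 2 did not match in Y-linked RNA between these groups. The pairing was inferred from the correlations, so calls that use it are a description. With the replicate number as a block in a fit of the wild-type libraries alone, an alternative chosen after the data were seen, 1396 of 11938 genes were called. Without the block 611 were called in the same libraries, and 236 of 12823 in the main fit. Ifitm6 and Ifitm7 were called in that fit, and Ifitm2 and Ifitm3 were not (adjusted p = 0.893 and 0.986). The test of the difference between the 2 agonist effects, knockout minus wild type, gave 2.14 ± 0.29 for Ifitm3 (adjusted p = 0.00191) and 1.02 ± 0.20 for Ifitm2 (adjusted p = 0.00863). For Ifitm1 this difference was 3.59 ± 0.33 on the log2 scale, the second highest of the tested genes and again without a test. The background was 15.6% of genes called in this interaction, 5.53% higher and 10.0% lower. Of the called genes 35.5% were higher, and 55.5% after quantile normalization.

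Treated knockout cells were then set against each wild-type group. Against treated wild type, Ifitm1 was lower by a log2 difference of -0.89 ± 0.23, and its groups of libraries did not overlap. None of the 5 members tested besides Ifitm1 was called at an adjusted p under 0.05 in limma, and 1.37% of all genes were (0.632% higher). Ifitm2, the 1 of those 5 with an unadjusted p under 0.05, came to -0.49 ± 0.14 (adjusted p = 0.109), with treated knockout libraries below all treated wild-type libraries. Ifitm3 came to -0.27 ± 0.21 (adjusted p = 0.49). Against untreated wild type, Ifitm1 came to -0.59 ± 0.23, Ifitm2 to -0.47 ± 0.14 (adjusted p = 0.059) and Ifitm3 to -0.26 ± 0.21 (adjusted p = 0.424). In that comparison 10.4% of genes were called (2.93% higher and 7.52% lower), and Ifitm7 was the 1 member among the 5 tested besides Ifitm1. Of the called genes 28.1% were higher, and 45.1% after median-of-ratios rescaling. These comparisons share libraries with those above.

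**Figure D2:**
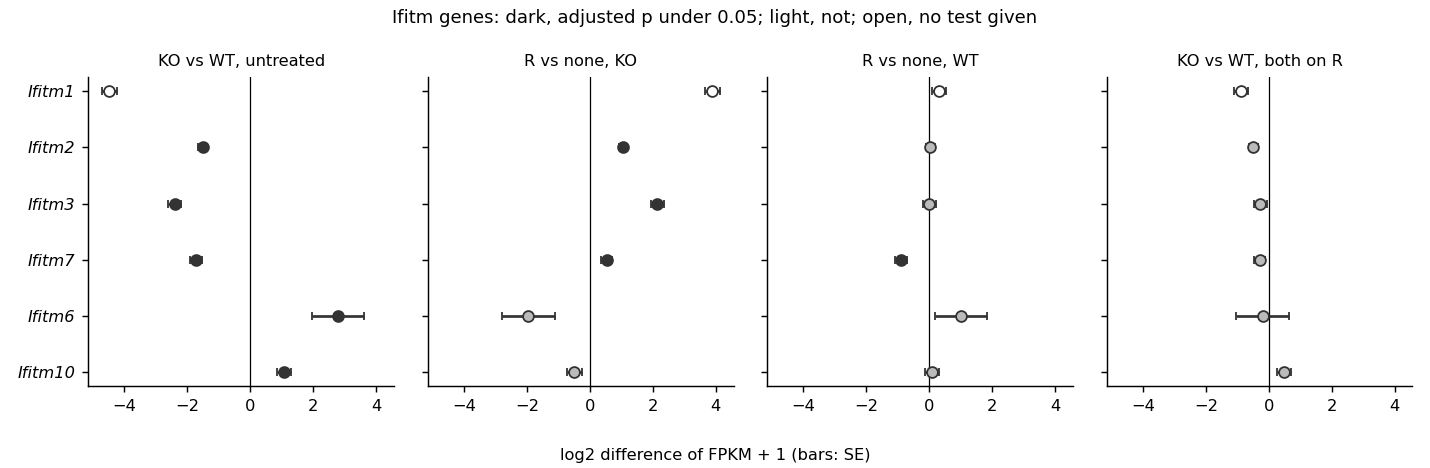
Log2 difference of FPKM + 1 (horizontal axis) with its SE for 6 Ifitm genes in 4 comparisons; KO is knockout, WT wild type and R Romiplostim. Ifitm1, Ifitm2, Ifitm3 and Ifitm7 lie left of 0 in untreated knockout against untreated wild type and right of 0 for Romiplostim in knockout, and Ifitm6 has the widest SE.

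Because the 3 main genes differed in how far they fell, the make-up of the family differed most in untreated knockout libraries. The 7 genes together had 7836 ± 1616 FPKM in treated knockout, 1834 ± 412 in untreated knockout, 11650 ± 1790 in treated wild type and 10460 ± 786 in untreated wild type (SD, n = 3 each). That was 0.925%, 0.234%, 1.40% and 1.29% of all FPKM in the same order. Ifitm1 made up 33.6% to 41.4% of the family sum in treated knockout libraries, 8.41% to 13.6% in untreated knockout libraries, 43.6% to 50.6% in treated wild-type libraries and 39.5% to 46.8% in untreated wild-type libraries. The share of Ifitm2 ran the other way, with 34.8% to 48.7% in untreated knockout libraries and no library above 23.7% elsewhere. Ifitm3 kept a similar share throughout, from 30.9% to 42.6%. Per library, Ifitm1 had 0.955 ± 0.144 times the FPKM of Ifitm3 in treated knockout and 0.288 ± 0.082 times in untreated knockout. That ratio was 1.47 ± 0.211 in treated wild type and 1.20 ± 0.196 in untreated wild type.

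**Figure D3:**
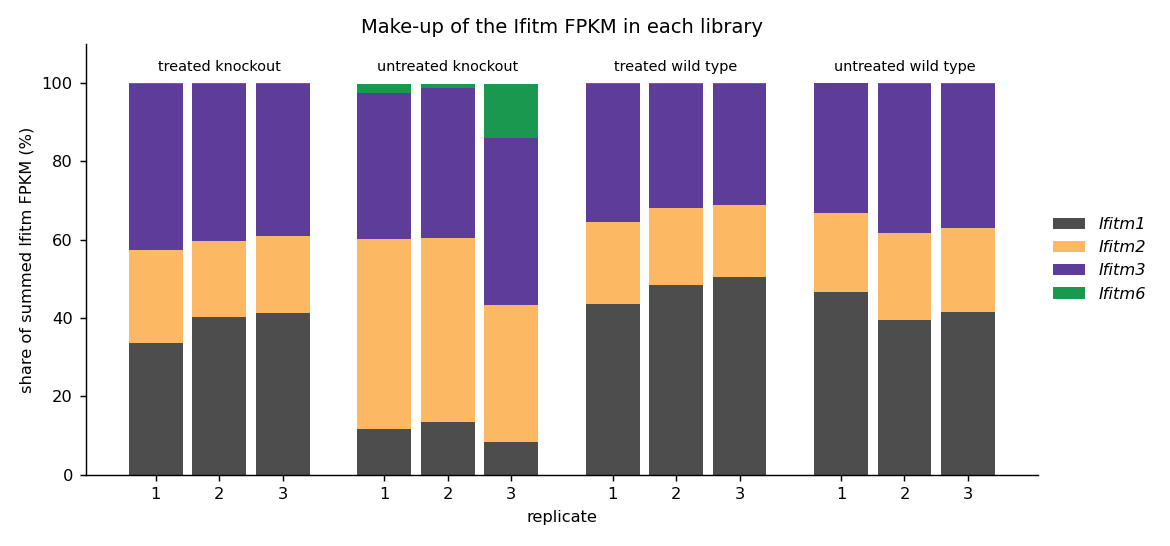
Share of the summed FPKM of the 7 Ifitm genes (vertical axis, percent) taken by Ifitm1, Ifitm2, Ifitm3 and Ifitm6 in each library; the other 3 members are too small to draw. Ifitm1 makes up 8.41% to 13.6% in untreated knockout and at least 33.6% in every other library.

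Ifitm6 (ENSMUSG00000059108), a paralog at the end of the cluster, had 11.7, 17.7 and 18.8 FPKM in treated knockout libraries and 40.4, 19.4 and 323 FPKM in untreated knockout libraries. It had 7.62, 27.4 and 28.1 FPKM in treated wild-type libraries and 4.31, 12.6 and 11 FPKM in untreated wild-type libraries. Untreated knockout replicate 3 was far above all others, and untreated knockout replicate 2 lay within the range of treated wild type. Ifitm6 rose in untreated knockout against untreated wild type by 2.77 ± 0.83 on the log2 scale (adjusted p = 0.0177). The value was 1.61 without untreated knockout replicate 3 (adjusted p = 0.0404), and without untreated wild-type replicate 1 it was 2.34 with an adjusted p of 0.0643. Romiplostim in the knockout gave -1.95 ± 0.83 (adjusted p = 0.0953), which passed the threshold without untreated knockout replicate 2 (-2.79, adjusted p = 0.031). In wild type it gave 1.01 ± 0.83 (adjusted p = 0.691), and with the replicate number as a block in a fit of the wild-type libraries alone its adjusted p was 0.00815.

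The levels of Ifitm6 followed those of S100a8, a calcium-binding protein gene of neutrophils and monocytes that was chosen for mention after its values were seen. S100a8 had 1250, 884 and 1630 FPKM in treated knockout libraries, 3110, 2000 and 14300 in untreated knockout libraries, 417, 2140 and 2470 in treated wild-type libraries and 185, 894 and 1280 in untreated wild-type libraries. Ifitm6 amounted to between 0.855% and 2.32% of S100a8 in every library, a range of 2.71-fold, while Ifitm6 itself ranged 74.9-fold and S100a8 77.3-fold. S100a8 rose by 2.90 ± 0.88 in untreated knockout against untreated wild type (adjusted p = 0.0184). The part of such cells in the Ifitm6 difference was not tested.

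Ifitm7 (ENSMUSG00000065968), the member on chromosome 16, had 0.701, 1.09 and 0.833 FPKM in treated knockout libraries and 0.395, 0.0698 and 0.443 FPKM in untreated knockout libraries. It had 1.23, 1.29 and 1.35 FPKM in treated wild-type libraries and 2.29, 3.91 and 3.85 FPKM in untreated wild-type libraries. No 2 groups overlapped, and the order from low to high was untreated knockout, treated knockout, treated wild type and untreated wild type. The share of all genes whose groups separate in this way was not counted. Treated knockout against treated wild type gave a log2 difference of -0.29 ± 0.18, which was not called in limma (adjusted p = 0.394). The levels of Ifitm7 rest on few fragments, recovered as 3 to 17 per library in untreated knockout and 108 to 153 in untreated wild type. Treated knockout replicate 2 had 52, and the treated wild-type libraries had 49 to 56. On the log2(FPKM + 1) scale, which understates changes of low genes, Ifitm7 fell by 1.73 ± 0.18 in untreated knockout against untreated wild type. Its mean came to 9.04% of the wild-type mean. This is a description, since the gene passed the filter through wild-type libraries. Of the 7 libraries in which Ifitm7 reached 1 FPKM, all but treated knockout replicate 2 were wild type. With a pseudocount of 0.1 or 0.01 the log2 difference was -3.23 and -3.74.

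Unlike the 3 abundant members, Ifitm7 was lower in treated than in untreated wild-type cells, by a log2 difference of -0.90 ± 0.18 (adjusted p = 0.0302). The mean of treated wild type was 38.5% of that of untreated wild type. This call was lost in 8 of 24 alternatives. Its adjusted p was 0.172 with a pseudocount of 0.1, 0.299 with a pseudocount of 0.01 and 0.0599 without a filter. Without treated wild-type replicate 1, 2 or 3 in turn it was 0.125, 0.123 and 0.107, and without untreated wild-type replicate 2 or 3 it was 0.130 and 0.117. In treated against untreated knockout Ifitm7 rose by 0.53 ± 0.18 (adjusted p = 0.0479), a call at the edge of the threshold that was lost in 14 of 22 alternatives. Its adjusted p there was 0.405 with Y-linked level as a covariate and 0.0868 without a filter. Without treated knockout replicate 2 or 3 it was 0.113 and 0.0997, and without untreated knockout replicates 1, 2 and 3 in turn it was 0.0783, 0.172 and 0.0507. Without treated wild-type replicates 1, 2 and 3 it was 0.0646, 0.0683 and 0.0674, and without untreated wild-type replicate 2 or 3 it was 0.0527 and 0.0567. The difference between the agonist effects was 1.44 ± 0.26 (adjusted p = 0.00595). Its agonist differences thus had opposite signs in the knockout and wild-type cells. Treated knockout against untreated wild type gave -1.20 ± 0.18, with 26.1% of the wild-type mean. This too is a description, since Ifitm7 passed the filter through wild-type libraries.

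Reads of Ifitm7 could be confused with those of 2 other genes. Its coding sequence was 89.3% identical to that of Ifitm1 over the aligned bases, the closest pair of the family, yet the 2 genes shared no stretch of 100 bases. Ifitm7 had between 0.0209% and 0.229% of the FPKM of Ifitm1, a percentage that was highest in untreated knockout replicates 1 and 3. The gene 2900011O08Rik on the opposite strand (chromosome 16, 13986604 to 14101500) overlaps the start of Ifitm7, and the kit did not mark strand. It had 0.479, 2.11 and 0.871 FPKM in treated knockout, 1.21, 1.19 and 0.845 in untreated knockout, 1.85, 2.14 and 1.76 in treated wild type and 3.22, 4.59 and 2.55 in untreated wild type. It also fell in untreated knockout against untreated wild type, by 1.08 ± 0.25 (adjusted p = 0.00462). Of the 100-base stretches of Ifitm7, 6.7% were shared with it.

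Ifitm10 (ENSMUSG00000045777), the most distant member in position, had 0.113, 1.17 and 0.631 FPKM in treated knockout libraries and 0.741, 1.27 and 1.75 FPKM in untreated knockout libraries. It had 0.0688, 0.165 and 0.168 FPKM in treated wild-type libraries and 0.0593, 0.0891 and 0.0358 FPKM in untreated wild-type libraries. The untreated knockout libraries were above all wild-type libraries, and treated knockout replicate 1 lay among those of treated wild type. The untreated knockout values rest on 43 to 96 fragments per library and the wild-type values on 2 to 10. Untreated knockout against untreated wild type gave a log2(FPKM + 1) difference of 1.06 ± 0.23, a description, since the gene passed the filter only through knockout libraries. With a pseudocount of 0.1 or 0.01 the log2 difference was 3.01 and 4.13. Romiplostim in the knockout gave -0.49 ± 0.23. Ctsd, the lysosomal protease gene beside it, differed in the same directions in these comparisons, by 1.42 ± 0.24 (adjusted p = 0.000575) and -1.84 ± 0.24 (adjusted p = 0.00029). A readthrough gene overlaps the start of Ifitm10 and shares 2.5% of its 100-base stretches.

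Ifitm5 (ENSMUSG00000025489), which acts in bone mineralization, stayed below 1 FPKM in every library and was not tested. It had 0.458, 0.397 and 0.990 FPKM in treated knockout, 0.654, 0.264 and 0.690 in untreated knockout, 0.792, 0.546 and 0.954 in treated wild type and 0.441, 0.917 and 0.534 in untreated wild type. All 4 groups overlapped, on 6 to 22 fragments per library. It is the member between Ifitm2 and the neighbouring gene Pgghg, so the cluster held a nearly silent gene beside 1 of the 31 most abundant transcripts of untreated wild-type cells.

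The genes around the cluster were set beside it. Within 100 kb, 18 other genes are annotated, of which 13 are in the table and 9 were tested. In untreated knockout against untreated wild type, 3 of the 9 fell and 1 rose, with log2 differences from -1.36 to 0.51, against 45.1% of all genes called. Sirt3, a mitochondrial deacetylase, fell by 1.36 ± 0.29 (adjusted p = 0.00291), and Psmd13, a proteasome subunit, rose by 0.51 ± 0.12 (adjusted p = 0.00468). B4galnt4, a glycosyltransferase gene, came to -0.82 ± 0.20 (adjusted p = 0.0056) and Bet1l, of Golgi transport, to -0.64 ± 0.13 (adjusted p = 0.00178). Pgghg, the closest tested gene on the side of Ifitm5, had 7.98, 11.7 and 10.4 FPKM in treated knockout, 12.7, 10.5 and 10.4 in untreated knockout, 8.82, 13.3 and 10.4 in treated wild type and 9.24, 14.3 and 12.3 in untreated wild type. Under Romiplostim in the knockout 1 of the 9 was called, B4galnt4, which rose by 0.61 ± 0.20 (adjusted p = 0.0383), against 29.6% of all genes. None was called in treated against untreated wild type by limma, and 1 was lower at an unadjusted p under 0.05.

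**Figure D4:**
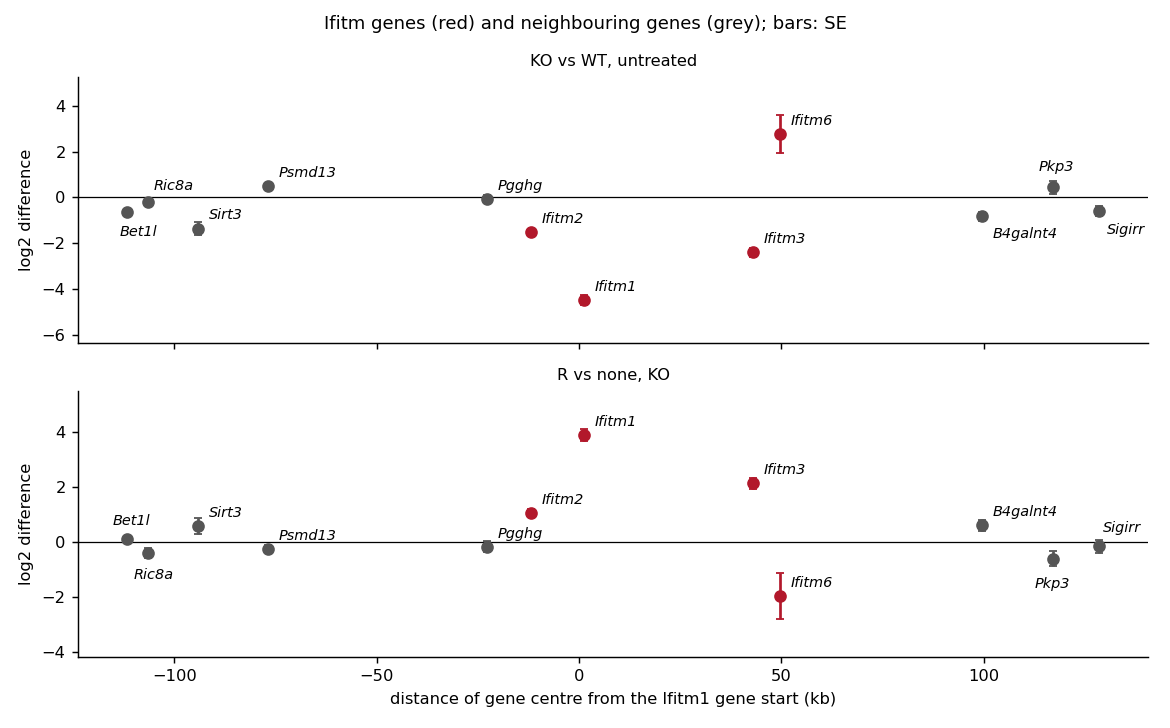
Log2 difference of FPKM + 1 with its SE (vertical axis) against the distance of the gene's centre from the Ifitm1 gene start in kb (horizontal axis), for the Ifitm genes of the cluster in red and the named tested genes within 100 kb in grey. Ifitm1, Ifitm2 and Ifitm3 lie below the neighbours in the upper panel and above them in the lower panel, and Ifitm6 lies on the other side of 0.

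Genes of the interferon pathway were counted in lists without Ifitm members, each beside the median of all tested genes. Of 40 interferon-induced genes, all tested, 15 fell and 3 rose in untreated knockout against untreated wild type, with a median log2 difference of -0.36 against -0.03 over all genes, of which 23.0% fell and 22.1% rose. The 15 became 24 with library weights, and the 3 became 1 without untreated wild-type replicate 1. With library weights 7407 of all 12823 genes were called in either direction, against 5779 in the main fit. The 4 members with the smallest p were Xaf1 (-1.0 ± 0.16, adjusted p = 0.000384), Bst2 (-0.83 ± 0.13, adjusted p = 0.000503), Rtp4 (-1.06 ± 0.17, adjusted p = 0.000529) and Psmb8 (-0.67 ± 0.11, adjusted p = 0.000569). Bst2 encodes tetherin, which holds budding viruses at the cell surface, and Psmb8 an immunoproteasome subunit. Bst2 had 243, 201 and 206 FPKM in treated knockout, 117, 131 and 147 in untreated knockout, 187, 180 and 200 in treated wild type and 211, 220 and 273 in untreated wild type. Widely used members of the list such as Isg15, an antiviral ubiquitin-like protein, and Ifit1, a sensor of viral RNA, were not called, at -0.25 ± 0.31 (adjusted p = 0.532) and -0.62 ± 0.30 (adjusted p = 0.115). Both were chosen for mention after their values were seen. The largest fall on the list was -1.49 ± 0.29 for Ly6a (adjusted p = 0.00158), which is also a stem cell marker, beside -1.52 for Ifitm2.

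In treated against untreated knockout, 12 of the 40 interferon-induced genes rose and none fell at an adjusted p under 0.05 in limma, while 15 were higher and 2 lower at an unadjusted p under 0.05, with a median of 0.31 against -0.09 over all genes, of which 10.7% rose and 18.9% fell. The count of 12 was 1 with Y-linked level as a covariate, 7 in a fit of these 6 libraries alone and 7 without untreated knockout replicate 1. Over all genes the rises also became fewer, from 1377 of 12823 to 215 of 12823, 727 of 12140 and 836 of 12573 in the same order. Xaf1 rose by 0.85 ± 0.16 (adjusted p = 0.00242), Bst2 by 0.72 ± 0.13 (adjusted p = 0.00269), Rtp4 by 0.88 ± 0.17 (adjusted p = 0.00366) and Psmb8 by 0.35 ± 0.11 (adjusted p = 0.0351). In treated against untreated wild type none of the 40 was called in limma, 2 were higher and 6 lower at an unadjusted p under 0.05, and the median was -0.12 against -0.04 over all genes. With the replicate number as a block in a fit of the wild-type libraries alone, 1 of the 40 rose and 5 fell.

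Receptors and signalling genes upstream were counted next. Of 20 tested, of 21 listed, 4 rose and 1 fell in untreated knockout against untreated wild type, with a median of 0.20, where 22.1% of all genes rose and 23.0% fell. The share that rose was near that of all genes. The listed receptor genes Ifngr1 and Il10rb rose by 0.86 ± 0.22 (limma adjusted p = 0.00785) and 0.84 ± 0.13 (adjusted p = 0.000454). Mavs, an adaptor of RNA sensing, rose by 0.45 ± 0.12 (adjusted p = 0.00824). Ifnlr1, the listed receptor gene for interferon lambda, did not exceed 0.692 FPKM in any library and was not tested. Socs1, an inhibitor of the pathway that thrombopoietin also induces, fell by 1.40 ± 0.30 (adjusted p = 0.00314). The count of falls was 3 without treated knockout replicate 1, without treated knockout replicate 2 or without untreated wild-type replicate 1, and 2 without untreated knockout replicate 3, and it was 4 with quantile normalization or library weights. Under Romiplostim in the knockout none rose (also at an unadjusted p under 0.05) and 3 fell by limma, with a median of -0.31, where 10.7% of all genes rose and 18.9% fell. Those 3 became 8 without treated knockout replicate 2 and 1 without untreated knockout replicate 1. All genes called in either direction numbered 3797 in the main fit, and 4305 and 2214 in those fits. None was called in treated against untreated wild type by limma, 1 was lower at an unadjusted p under 0.05, and 1 fell with the block in wild-type libraries alone.

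Proteins known to bind or modify Ifitm proteins were also counted. Of 11 tested, 3 fell and 2 rose in untreated knockout against untreated wild type, with a median of -0.15, shares near those of all genes (23.0% lower and 22.1% higher). The falls became 1 without untreated wild-type replicate 2, and the rises 1 without untreated knockout replicate 1 or 3. Setd7, a methyltransferase, fell by 0.57 ± 0.13 (adjusted p = 0.00395), and Nedd4, a ubiquitin ligase that acts on Ifitm3, fell by 0.56 ± 0.16 (adjusted p = 0.0147). Zmpste24, a protease, rose by 0.42 ± 0.12 (adjusted p = 0.0154). Among 18 genes of thrombopoietin signalling 8 fell and 1 rose in the same comparison, with a median of -0.28, beside the same shares of all genes. The rises became 2 without treated knockout replicate 2 or without untreated wild-type replicate 1 or 2. The feedback genes Cish and Socs2 fell by 3.13 ± 0.32 (adjusted p = 3e-05) and 2.70 ± 0.31 (adjusted p = 5.32e-05), the cyclin gene Ccnd2 by 1.33 ± 0.16 (adjusted p = 6.77e-05) and the kinase gene Pim1 by 1.88 ± 0.24 (adjusted p = 0.00012).

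Of 12 stem cell markers, 10 fell and none rose in untreated knockout against untreated wild type, with a median of -1.67 beside 23.0% of all genes lower, and 10 rose and none fell (also at an unadjusted p under 0.05) in treated against untreated knockout, with a median of 1.31 beside 10.7% of all genes higher. The second count was 2 with Y-linked level as a covariate, a fit in which 215 of all 12823 genes rose, against 1377 without the covariate. Procr, a surface receptor used to sort stem cells, had 50.5, 122 and 82.2 FPKM in treated knockout, 22.2, 18.2 and 16.5 in untreated knockout, 81.1, 110 and 108 in treated wild type and 130, 141 and 151 in untreated wild type. It had the lowest log2 difference on the list, -2.84 ± 0.26, which lies between those of Ifitm1 and Ifitm3. The part of the stem cell share in the Ifitm differences was not tested.

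**Figure D5:**
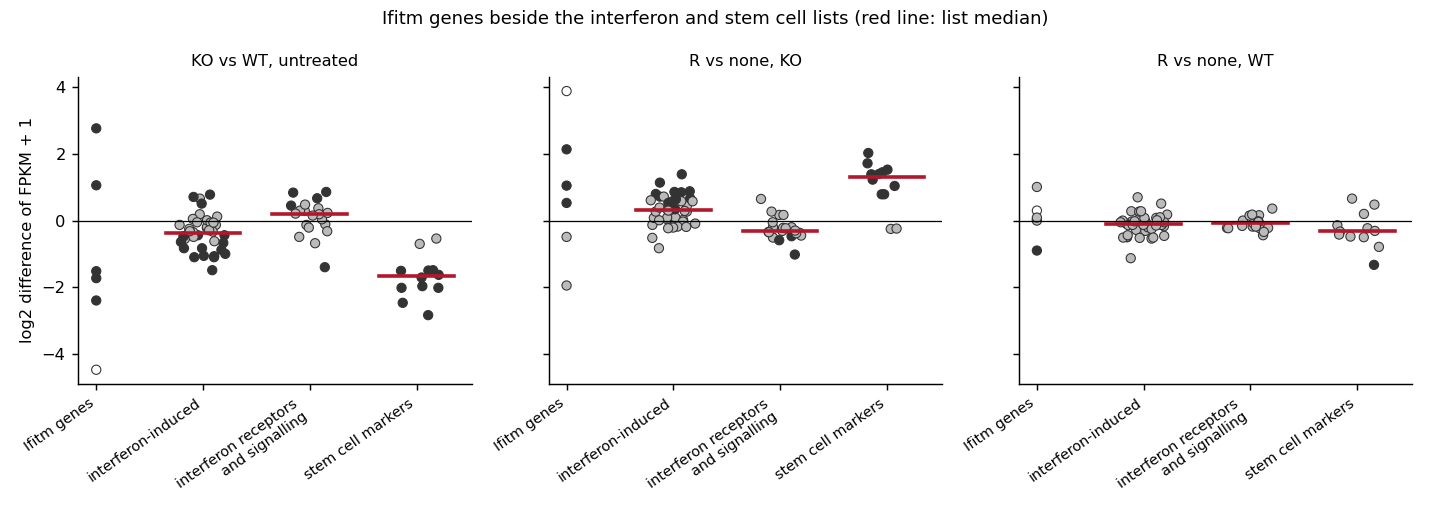
Log2 differences of FPKM + 1 (vertical axis) for each tested gene of the Ifitm family, 2 interferon lists and the stem cell markers in 3 comparisons; dark points have an adjusted p under 0.05, light points do not, open points are Ifitm1, and red lines are list medians. The median of the interferon-induced genes is -0.36, 0.31 and -0.12 from left to right, and that of the stem cell markers -1.67, 1.31 and -0.32.

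The genes whose levels ran most like those of Ifitm1 were found by Pearson correlation of log2(FPKM + 1) over the 12 libraries. This is a description, since the libraries fall into 4 groups and the untreated knockout dominates. The closest named gene was Guca1a (r = 0.994), an activator of guanylate cyclase known from photoreceptors, followed by Flywch2 (0.986), Cnpy2 (0.984) and the dynein light chain gene Dynlrb1 (0.984). Hspb11, a part of the intraflagellar transport machinery, Ifitm3 and Tctex1d2 each reached 0.980, the luteinizing hormone receptor gene Lhcgr and Ifitm2 reached 0.978, and Nbdy, a microprotein of mRNA decapping, reached 0.977. Ifitm3 and Ifitm2 thus stood at places 8 and 11 among all tested genes, unnamed ones included. Guca1a had 33.5, 42.7 and 47.8 FPKM in treated knockout, 9.30, 7.61 and 7.93 in untreated knockout, 49.1, 63.5 and 58.4 in treated wild type and 51.6, 57.7 and 54.9 in untreated wild type. Lhcgr had 8.00, 10.8 and 12.4 FPKM in treated knockout, 1.17, 0.963 and 1.05 in untreated knockout, 16.8, 20.7 and 17.2 in treated wild type and 18.6, 24.5 and 23.8 in untreated wild type. Both separated untreated knockout from all other libraries, as Ifitm1 did. Over the same 12 libraries r with Ifitm1 was 0.712 for Ifitm7, -0.627 for Ifitm6 and -0.764 for Ifitm10. After removal of group means the correlation with Ifitm1 was 0.68 for Ifitm2, 0.44 for Ifitm3, -0.09 for Ifitm7, 0.19 for Ifitm6 and 0.46 for Ifitm10, so that the signs of the last 3 turned.

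The members closest to Ifitm1 in coding sequence, Ifitm7, Ifitm3 and Ifitm2, were those lower in untreated knockout. The less similar Ifitm6 and Ifitm10 were higher, a description over 5 genes from which nothing is read. Ifitm7 and Ifitm10 passed the filter through the genotype in which each was high. Ifitm5, the least similar member, was not tested and its groups overlapped. The coding sequence of Ifitm1 was 81.1% identical to that of Ifitm3, 80.3% to Ifitm2, 68.2% to Ifitm6, 67.4% to Ifitm10 and 65.0% to Ifitm5 over aligned bases. No stretch of 100 bases was shared between any 2 members. Of the stretches of Ifitm2, 34.9% were shared with other genes, namely 2 processed pseudogenes that did not exceed 0.719 FPKM in any library and a readthrough gene that spans Ifitm5 and Ifitm2. How the counting treated such reads is not given in the sources used here, and Ifitm5 shared 19.7% with the same readthrough gene, so levels of Ifitm2 and Ifitm5 are uncertain to that extent.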

How the data were processed

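Sorted stem cells were lysed in TRIzol, and cDNA was made with a low-input kit without strand marking and read as paired ends, per the labels' protocols. The authors deposited 1 table of FPKM values for all 12 libraries. Of tools, the submitters' processing notes list TopHat2 and Cufflinks 2.2.1, of builds mm10, and they give no settings here. The annotation release is not given in the sources used here. Of 35275 Ensembl identifiers, 34490 matched GENCODE M21. Depth was estimated from the steps of low FPKM values. At most 53.5% of the low values of a library came out whole within 0.05 fragments, so fragment numbers are estimates.

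Values were analysed as log2(FPKM + 1) for the 12823 genes with at least 1 FPKM in at least 3 libraries. Group means over all 12 libraries were fitted in limma 3.58.1 under R 4.3.3, allowing the variance to depend on expression, in 6 contrasts. Two-sided p-values received Benjamini-Hochberg adjustment over all tested genes of a contrast, and genes with an adjusted p under 0.05 were called. Deviations from group means of same-numbered libraries correlated at 0.40, 0.12 and 0.38 between treated and untreated wild type. No other pair of groups had all 3 above 0.1. The main fit used no pairing, and the labels state none. Only alternative fits held the replicate number as a block. The procedure was tested on simulated data.

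The members and lists were chosen with earlier results of these data known. Named genes were all members, up to 4 of each list with the smallest p in untreated knockout against untreated wild type, the 10 named genes most correlated with Ifitm1, neighbours within 100 kb of the cluster and cell type markers, with exceptions stated. Some genes that this rule names are not reported here. Promoter windows came from RefSeq, and coding sequences were aligned with Biopython 1.88. Alternatives changed the pseudocount, filter, scaling, variance trend, library weights or libraries, or added a replicate block or the Y-linked level.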

Additional observations from a re-analysis of the deposited data

Results flagged for a closer look

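For 3 members the agonist effect differed between genotypes by limma's interaction term, the knockout effect less the wild-type effect. Ifitm3 had a log2 difference of 2.14 in the knockout and 0.00 in wild type, an interaction of 2.14 (adjusted p = 0.00191). Ifitm2 had 1.05 in the knockout and 0.03 in wild type, an interaction of 1.02 (adjusted p = 0.00863). Ifitm7 had 0.53 in the knockout and -0.90 in wild type, an interaction of 1.44 (adjusted p = 0.00595), which no longer passed the threshold with Y-linked level as a covariate (1.32, adjusted p = 0.0671). Ifitm2 and Ifitm3 passed it there, at adjusted p values of 0.0474 and 0.0247.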

How the results depend on the processing

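The falls of Ifitm2 and Ifitm3 in untreated knockout against untreated wild type, and their rises under Romiplostim in the knockout, passed the threshold in all 24 alternatives, and their interactions in all 23. Differences near 0 changed sign. Romiplostim in wild type gave -0.10 for Ifitm2 and -0.004 for Ifitm3 with quantile normalization and -0.01 for Ifitm3 with library weights, and from -0.04 to 0.11 for Ifitm2 and from -0.04 to 0.08 for Ifitm3 with single libraries left out. Ifitm6 in treated knockout against treated wild type gave 0.12 with Y-linked level as a covariate and from -0.78 to 0.10 with single libraries left out. Ifitm2 in treated knockout was called against treated wild type with library weights (-0.42, adjusted p = 0.0433) and against untreated wild type with quantile normalization (-0.69, adjusted p = 0.0167) and without a trend (-0.47, adjusted p = 0.0467). The number of members called besides Ifitm1 in untreated knockout against untreated wild type was 5, and 3 with a filter at 5 FPKM, which tests fewer members. For Romiplostim in wild type it was 1, and 0 with a pseudocount of 0.1 or 0.01, without a filter or with a filter at 5 FPKM, and 0 to 1 with single libraries left out. In treated knockout against treated wild type it was 0, and 1 with library weights. In treated knockout against untreated wild type it was 1, then 0 with a filter at 5 FPKM and 2 with quantile normalization, no trend or library weights, and 1 to 2 with single libraries left out (2 without treated knockout replicate 1). Interferon receptor and signalling genes that fell in untreated knockout numbered 1 against untreated wild type. The number was 2 with a pseudocount of 0.1 or 0.01, a filter at 5 FPKM, median-of-ratios rescaling or the replicate block. It was 4 with quantile normalization or library weights, 3 with the libraries of the comparison alone, and 1 to 3 with single libraries left out. It was also 3 without 2 libraries, untreated knockout replicate 3 and treated knockout replicate 2. Each of these was the highest of its own group in other cells' markers. All untreated knockout libraries stood above treated knockout replicate 2 in these markers. Under Romiplostim in the knockout 0 of that list rose, 1 with quantile normalization or without those 2 libraries, and 0 to 1 with single libraries left out. Of that list 3 fell, 8 with library weights, 1 with Y-linked level or the libraries of the comparison alone, 5 without those 2 libraries, and 1 to 8 with single libraries left out. In wild type library weights gave 1 higher and 1 lower in place of 0. Interferon-induced genes that fell in untreated knockout against untreated wild type numbered 15, and 24 with library weights, and those that rose 3, and 1 to 3 with single libraries left out. Under Romiplostim in the knockout 12 of them rose, 1 with Y-linked level, 7 with the libraries of the comparison alone, and 7 to 15 with single libraries left out, while 0 fell, 1 with quantile normalization or the replicate block, 3 with library weights, 2 without those 2 libraries, and 0 to 2 with single libraries left out. In wild type 0 rose and 0 fell, but 1 rose and 9 fell with library weights, 3 fell with the libraries of the comparison alone, 2 fell without those 2 libraries, and 0 to 1 fell with single libraries left out. Calls over all genes moved as well. Untreated knockout against untreated wild type had 5779 called genes, 6360 with quantile normalization and 7407 with library weights. Romiplostim in the knockout had 3797, then 770 with Y-linked level, 2027 with the libraries of the comparison alone and 5469 with library weights. In wild type it had 236, and 1755 with library weights. The causes of these changes were not tested, other than the smaller number of members or samples where an alternative removes some. Same-numbered replicates correlated between -0.19 and 0.40, with 6 of 18 above 0.1, and only in treated against untreated wild type were all 3 pairs above 0.1. With the block in a fit of the wild-type libraries alone, added after seeing the data, 2 members were called, 1 interferon receptor or signalling gene fell, and 1 interferon-induced gene rose and 5 fell. The replicate block over all 12 libraries ended 1 call among the members, the rise of Ifitm7 under Romiplostim in the knockout (adjusted p = 0.0545). Depth limits Ifitm5, Ifitm7 and Ifitm10, which rest on few fragments per library.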
